A study of Macaca fascicularis with 12 samples.

Results

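The genes described here encode proteins that build, bind, cut or protect the extracellular matrix during wound responses. They were chosen by name: TGFBI, FN1, TNC, SPP1, LGALS3, PLAU, PLAUR, TIMP1 and CD44, with every array probe set annotated to 1 of these symbols alone. The 9 genes have 15 probe sets, of which 13 passed an intensity filter and were tested and 2 did not. The array holds 14132 genes with a symbol of their own, and 11143 of them were tested.

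The tissue came from the brain of 3 adult male cynomolgus macaques, 2 days after injection. BV tissue is from the left hemisphere, which received 4 intrastriatal injections of the baculovirus vector BV-HSVtk, each of 10 µL with 1e+08 particles. Mock tissue is from the right hemisphere of the same animals, which received virus-free medium of Sf9 insect cells, taken through the same purification, at matching places. From each hemisphere 2 pieces of about 100 mg were hybridised to 1 array each, giving 6 BV and 6 mock arrays. Replicates 1 and 2 are animal 1, replicates 3 and 4 are animal 2, and replicates 5 and 6 are animal 3. Both groups were injected, and no tissue without an injection was analysed here. Because virus was always given on the left, the effects of virus and of side cannot be told apart. Baculovirus is an insect virus that enters mammalian cells without multiplying in them, and HSVtk is the herpes simplex thymidine kinase gene that the vector is named for.

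Brain tissue normally holds little fibrillar matrix, and its spaces are filled by hyaluronan and proteoglycans. After injury, fibronectin from plasma and cells forms a provisional matrix, macrophages and glia secrete matricellular proteins, and the urokinase and metalloprotease systems cut this matrix while inhibitors such as TIMP1 limit the cutting. TGFBI is a matrix protein that binds integrins and collagen, and its transcription is induced by TGF-beta in many cell types.

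Values are given on the scale log2(signal + 3.49) after quantile normalization. Differences are BV minus mock on that scale, each with its standard error from limma, after the pieces of a hemisphere were averaged and with the animal as a block (n = 3 animals). Signals of different probe sets are not compared, since each probe set binds with its own strength. Of the 13 tested probe sets, 12 had a higher mean in BV tissue and 1 had a lower one. By the brightest probe set of each gene, 8 of the 9 genes were higher, beside 50.5% of all 11143 genes tested. At an adjusted p under 0.05 over all probe sets, 0 of the 13 were called, beside 9 of 31660 or 0.0284% of all probe sets tested. At an unadjusted p under 0.05, 6 of the 13 were higher and 0 lower, beside 5.15% of all tested probe sets higher and 3.65% lower. That count was 2 of the 13 without mock replicate 1, mock replicate 3 or BV replicate 4, and 3 without mock replicate 6, pair 6, animal 1 or animal 3. The median difference of the 9 genes, each by its brightest probe set, was 0.66, while that of all 11143 genes was 0.00. Leaving out mock replicate 6 alone gave a median of 0.26 over the 9 genes, leaving out mock replicate 3 gave 0.35, leaving out mock replicate 1 gave 0.40 and leaving out pair 6 gave 0.32. Upwards, the median was 1.07 when mock replicate 2 was left out, 1.10 for mock replicate 5, 0.99 for pair 5 and 1.09 for animal 2. Leaving out a single array, here and below, set 1 piece of that hemisphere against the mean of 2 pieces on the other side. Such values therefore also hold differences between pieces. In bulk tissue, a change in the number of cells of a type and a change in RNA per cell cannot be told apart.

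**Figure D1:**
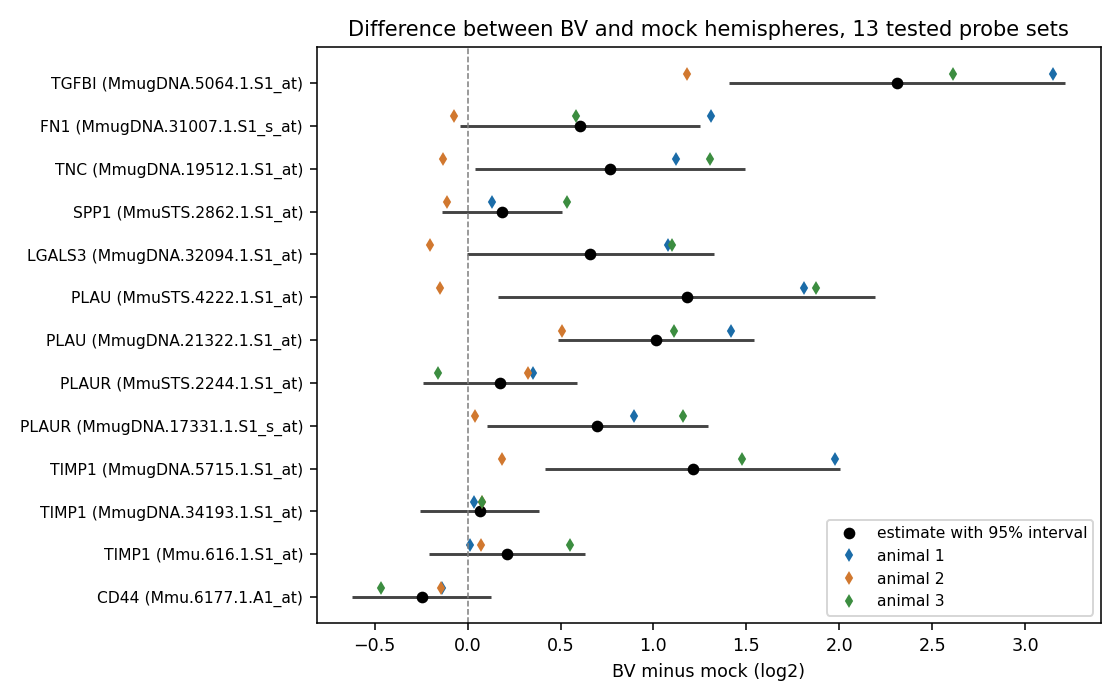
Difference of each tested probe set of the 9 genes, BV minus mock on the log2 scale, as black points with 95% intervals from limma, and small diamonds for the 3 animals. TGFBI stands farthest to the right at 2.31, CD44 is the only estimate left of 0, and animal 2 lies near 0 for most of the others.

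TGFBI had the largest difference of the 9 genes. Its 1 probe set (MmugDNA.5064.1.S1_at) read 6.59 at the lowest, 8.15 at the median and 9.22 at the highest in BV arrays, against 3.93, 5.81 and 7.66 in mock arrays. The BV arrays lay high and the groups overlapped by 1 mock array, replicate 4 of animal 2 at 7.66. It was above BV replicate 3 of the same animal at 6.59 and above BV replicate 1 of animal 1 at 7.30. The BV mean was 8.02 ± 0.12 and the mock mean 5.71 ± 0.94 (SD, n = 3 animals), so the hemisphere means spread more widely in mock tissue. The BV pieces of an animal read 7.30 and 8.74, 6.59 and 9.22, and 8.41 and 7.88 in animals 1 to 3. The close BV means are thus averages of unlike pieces. The difference was 2.31 ± 0.37 (95% interval 1.41 to 3.22), or 4.97-fold (2.65 to 9.30), with an unadjusted p of 0.000799 and an adjusted p of 0.281 in limma. This fit did not call it.

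By animal, the TGFBI difference was 3.15, 1.18 and 2.61 in animals 1, 2 and 3. Each BV array was above the mock array of the same replicate number, by 0.79 to 3.37. The largest pair differences, 3.37 in pair 1 and 3.22 in pair 6, were set against dim mock readings of 3.93 and 4.66. Both readings lay under 4.95, the cut that the filter applied to means over all arrays. A higher BV value in all 6 replicate pairs was found for 3.37% of all tested probe sets. When the 6 pairs were fitted as blocks of single arrays, TGFBI passed with an adjusted p of 0.0388 in limma, beside 0.174% of all tested probe sets. That fit counts the 2 pieces of a hemisphere as separate, so its p measures the spread between pieces as well as between animals. The call also turned with single arrays and animals: limma gave an adjusted p of 0.027 without BV replicate 3, 0.0331 without mock replicate 4 and 1.78e-05 without animal 2, which leaves 2 animals. Without BV replicate 3 or mock replicate 4, a single piece of animal 2 stood against the mean of both pieces across. Differences between pieces therefore entered both of those fits. The TGFBI difference itself stayed between 1.86 and 2.88 over 38 alternative settings.

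**Figure D2:**
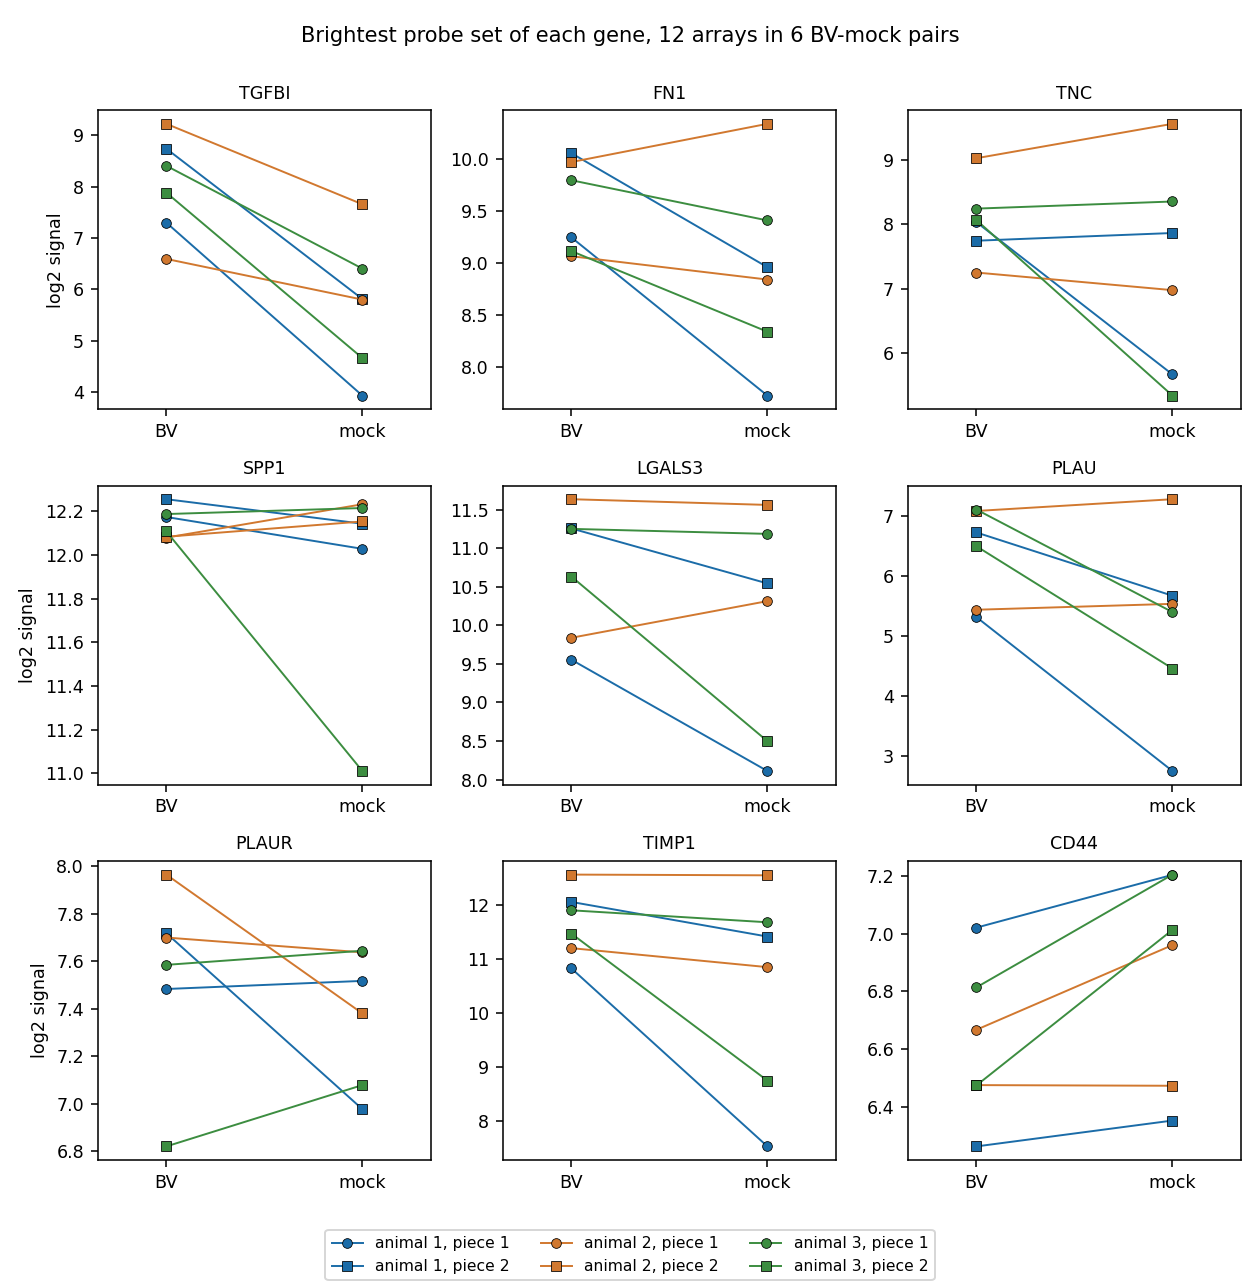
Log2 value (vertical axis) of the brightest probe set of each gene, 1 panel per gene, with BV left of mock, a line joining the arrays of a replicate pair, colours for the 3 animals and marker shapes for the 2 pieces. For TGFBI all 6 lines run downwards to mock, and for TIMP1, TNC and LGALS3 the steep lines end at mock replicates 1 and 6.

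FN1 encodes fibronectin, the adhesive glycoprotein of provisional matrix. Its bright probe set (MmugDNA.31007.1.S1_s_at) read 9.06, 9.52 and 10.06 at the lowest, median and highest BV array, against 7.72, 8.90 and 10.34 for mock. The lowest 2 arrays were mock replicates 1 and 6 and the highest was mock replicate 4, so the BV range of 0.99 lay within the mock range of 2.61. The difference was 0.61 ± 0.26 (-0.04 to 1.25; adjusted p = 0.565 in limma). It was 0.35 without mock replicate 3, 0.40 without mock replicate 1, 0.26 without animal 1 and 0.95 without animal 2. A second, dim FN1 probe set was under the filter and read 4.32 to 5.02 in BV and 3.76 to 4.58 in mock arrays.

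TNC encodes tenascin-C, a matrix glycoprotein made by reactive glia and in wounds, and was read by MmugDNA.19512.1.S1_at. BV arrays gave 7.25, 8.05 and 9.02 (lowest, median, highest) and mock arrays 5.34, 7.42 and 9.55. Mock replicates 6 and 1 were the lowest arrays and mock replicate 4 the highest. The difference of 0.76 ± 0.30 (0.04 to 1.49) had an unadjusted p of 0.0422 and an adjusted p of 0.564 in limma. The pairs were uneven: BV was higher by 2.36 in pair 1 and 2.72 in pair 6, and by 0.27 in pair 3, and lower in the other 3 pairs. Without pairs 1 and 6 the TNC difference was -0.12, and over single arrays left out it lay between 0.26 (without mock replicate 6) and 1.28 (without mock replicate 5).

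SPP1 encodes osteopontin, a secreted phosphoprotein that binds integrins and CD44 and is made by activated macrophages and microglia. Its probe set (MmuSTS.2862.1.S1_at) read 12.08, 12.14 and 12.25 at the lowest, median and highest BV array, against 11.01, 12.15 and 12.23 for mock. All arrays but mock replicate 6 lay within a narrow band near the top of the scale. In that band the signal was 44.8% to 67.3% of each array's highest signal, and on mock replicate 6 it was 30.8%. A bright probe set of this kind can be near saturation, which was not tested. The difference was 0.18 ± 0.13 (-0.14 to 0.51; adjusted p = 0.607 in limma), and it was -0.02 without mock replicate 6.

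LGALS3 encodes galectin-3, a lectin that binds galactosides on cell surfaces and matrix and is abundant in activated macrophages and microglia. On its probe set (MmugDNA.32094.1.S1_at), BV arrays read 9.55, 10.94 and 11.63 (lowest, median, highest), and mock arrays 8.11, 10.43 and 11.56. Mock replicates 1 and 6 were the lowest 2 arrays, and the other 4 mock arrays were all within the BV range. BV was higher in 5 of 6 pairs. The difference was 0.66 ± 0.27 (-0.01 to 1.32; adjusted p = 0.564 in limma), and it was 0.19 without pairs 1 and 6, 0.21 without mock replicate 6 alone and 0.25 without mock replicate 1 alone. At the other end it was 1.10 without mock replicate 5.

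The urokinase system was read by 4 tested probe sets. PLAU encodes urokinase, the protease that turns plasminogen into plasmin. Its brighter probe set (MmuSTS.4222.1.S1_at) read 5.32, 6.61 and 7.11 (lowest, median, highest) in BV arrays and 2.75, 5.47 and 7.28 in mock arrays. Its other probe set (MmugDNA.21322.1.S1_at) read 5.50, 6.47 and 6.61 in BV arrays and 3.88, 5.08 and 6.67 in mock arrays. Both had mock replicate 1 lowest and mock replicate 4 highest, and the groups overlapped in both.

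The PLAU probe sets gave differences of 1.18 ± 0.41 (0.17 to 2.19; adjusted p = 0.564) and 1.01 ± 0.21 (0.49 to 1.54; unadjusted p = 0.0034, adjusted p = 0.427) in limma. The differences of the brighter one were 1.81, -0.15 and 1.87 in animals 1, 2 and 3, and those of the other one were 1.42, 0.51 and 1.11. Without mock replicate 1 the brighter one gave 0.70, and without animal 2 it gave 1.84. After TGFBI, this second PLAU probe set had the smallest p of the 13, and BV was higher in 5 of 6 pairs, with pair 4 at -0.06.

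PLAUR encodes the urokinase receptor, which holds urokinase at the cell surface. Its probe sets gave different values. The brightest (MmuSTS.2244.1.S1_at) read 6.82, 7.64 and 7.97 (lowest, median, highest) in BV arrays and 6.98, 7.45 and 7.64 in mock arrays, so all 6 mock arrays lay within the BV range, with a difference of 0.17 ± 0.17 (-0.24 to 0.59; adjusted p = 0.685 in limma). The next (MmugDNA.17331.1.S1_s_at) read 5.55, 6.53 and 7.17 in BV arrays and 4.13, 6.19 and 6.61 in mock arrays, with mock replicates 6 and 1 lowest. Its difference was 0.70 ± 0.24 (0.10 to 1.29; unadjusted p = 0.0284, adjusted p = 0.564 in limma). It was 0.29 without mock replicate 6, 0.43 without BV replicate 2 and 1.12 without mock replicate 5. It was 0.08 on the piece 1 arrays and 1.40 on the piece 2 arrays. Before normalization the piece 1 arrays had median signals of 50.2 to 62.8 and the piece 2 arrays 25.4 to 32.7. Tissue piece and array scale therefore cannot be told apart. The difference between pieces, 1.25 ± 0.48 in the fit by replicate pair, had an unadjusted p of 0.0307 and an adjusted p near 1 (1.00) in limma. The remaining PLAUR probe set (MmugDNA.32468.1.S1_at) was dim on all arrays, at 2.63 to 2.92 in BV and 2.59 to 3.26 in mock, and was not tested.

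TIMP1 encodes a secreted inhibitor of matrix metalloproteases that is made by astrocytes and macrophages after injury. It has 3 probe sets, and they differed. The brightest (MmugDNA.5715.1.S1_at) read 10.83, 11.69 and 12.57 (lowest, median, highest) in BV arrays and 7.52, 11.14 and 12.56 in mock arrays. Mock replicates 1 and 6, at 7.52 and 8.74, stood below the other 4 mock arrays, which read 10.85 to 12.56 and lay among the BV arrays. Its difference was 1.21 ± 0.32 (0.42 to 2.01), or 2.32-fold, with an unadjusted p of 0.00978 and an adjusted p of 0.532 in limma. BV was higher in 6 of 6 pairs, by 3.31 in pair 1 and 2.73 in pair 6, but by only 0.64, 0.35, 0.01 and 0.22 in pairs 2 to 5. Without pairs 1 and 6 the difference was 0.35, without mock replicate 1 alone it was 0.56 and without mock replicate 6 alone 0.72, while without mock replicate 2 it was 1.87.

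The second TIMP1 probe set (MmugDNA.34193.1.S1_at) read 8.66, 8.75 and 8.99 in BV arrays and 8.41, 8.68 and 9.08 in mock arrays (lowest, median, highest). The dimmest read 6.52, 6.75 and 7.18 in BV arrays and 5.91, 6.63 and 7.20 in mock arrays. Neither had mock replicates 1 and 6 at the bottom: mock replicate 5 was lowest on both, and the highest arrays were mock replicate 6 on the second and mock replicate 1 on the dimmest. Their differences were 0.06 ± 0.13 (-0.26 to 0.39; adjusted p = 0.847) and 0.21 ± 0.17 (-0.21 to 0.63; adjusted p = 0.635) in limma. The brightest probe set spanned 5.03 over the mock arrays, and the second and the dimmest spanned 0.67 and 1.28. Which of the 3 follows TIMP1 transcript best was not tested, since their sequences were not used here.

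**Figure D3:**
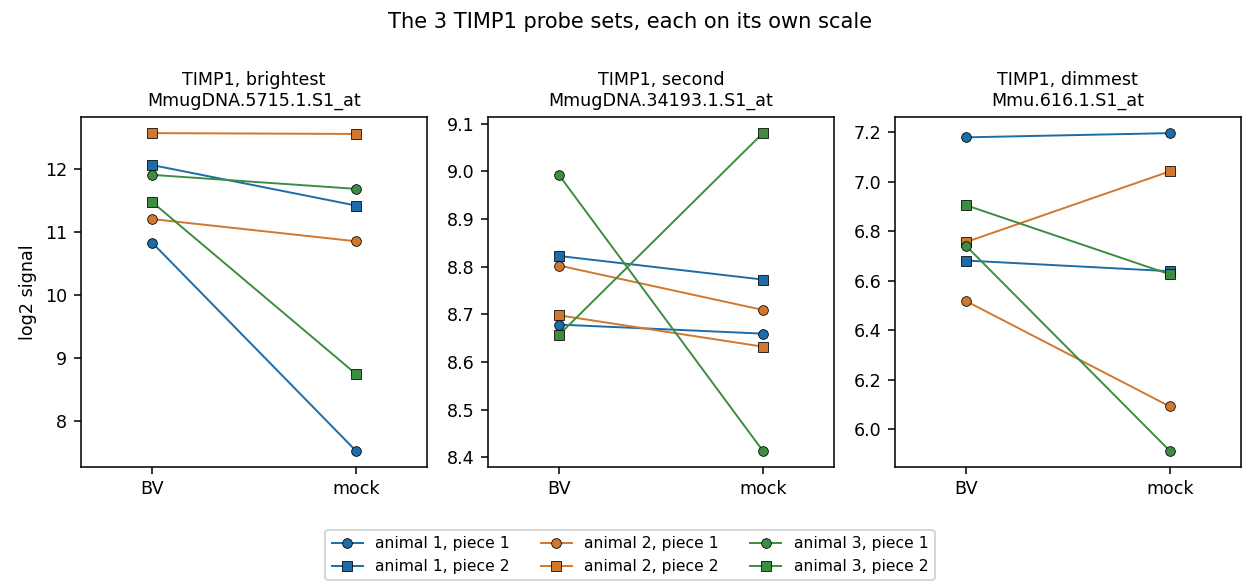
Log2 values of the 3 TIMP1 probe sets, each panel on its own axis, with BV left of mock, a line joining the arrays of a replicate pair, colours for animals and marker shapes for pieces. On the brightest probe set mock replicates 1 and 6 lie at 7.52 and 8.74, while the other probe sets span 0.67 and 1.28 over the mock arrays.

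CD44 encodes the cell-surface receptor for hyaluronan, which also binds osteopontin. It was the only one of the 13 probe sets with a lower BV mean. BV arrays read 6.26, 6.57 and 7.02 (lowest, median, highest) and mock arrays 6.35, 6.99 and 7.20. The groups overlapped almost wholly, on its probe set, with BV replicate 2 lowest and mock replicate 5 highest. The difference was -0.25 ± 0.15 (-0.62 to 0.12; adjusted p = 0.583 in limma), of the same sign in all 3 animals.

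The size of the differences varied between animals, though no test of that passed. The median difference of the 9 genes was 1.12 in animal 1, -0.11 in animal 2 and 1.10 in animal 3. By replicate pair, the median over the 9 genes was 1.52, 0.71, 0.06, 0.00, 0.06 and 2.04 for pairs 1 to 6, so the largest values belonged to pairs 1 and 6. The animal by treatment interaction gave no call among the 13 probe sets in limma, with unadjusted p between 0.284 and 0.990. Over all probe sets it called 0 of 31660, with 735 at an unadjusted p under 0.05. Without animal 2, 8 of the 13 passed an adjusted p of 0.05 in limma, but that fit rests on 2 animals. It also called 1843 of all probe sets, where the fit with 3 animals called 9 of 31660.

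**Figure D4:**
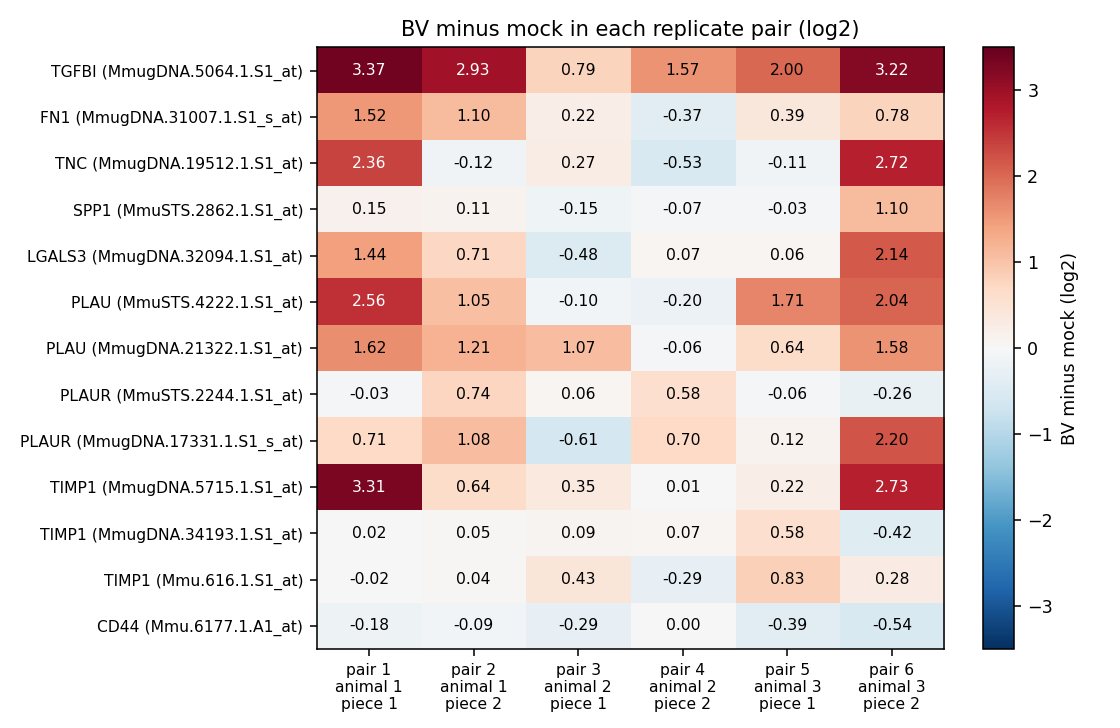
Colour map of BV minus mock on the log2 scale, 1 row per tested probe set and 1 column per replicate pair, with the value written in each cell, red where BV is higher and blue where it is lower. Pairs 1 and 6 hold the largest differences, pairs 3 to 5 lie near 0 for most probe sets, and TGFBI is above 0 in every pair.

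The low values were mostly those of a pair of mock arrays. For 8 of the 13 probe sets the lowest 2 arrays were mock replicates 1 and 6, and for 9 of 13 the lowest array was 1 of them. The range over arrays was smaller in BV than in mock tissue for 12 of 13 probe sets, with the brightest PLAUR probe set as the exception. How often these patterns occur over all tested probe sets was not counted, so they cannot be called particular to these genes. Leaving out pairs 1 and 6 together, a choice made after the values were seen, gave 2.06 for TGFBI and a median of 0.34 over the 9 genes, with no member called.

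**Figure D5:**
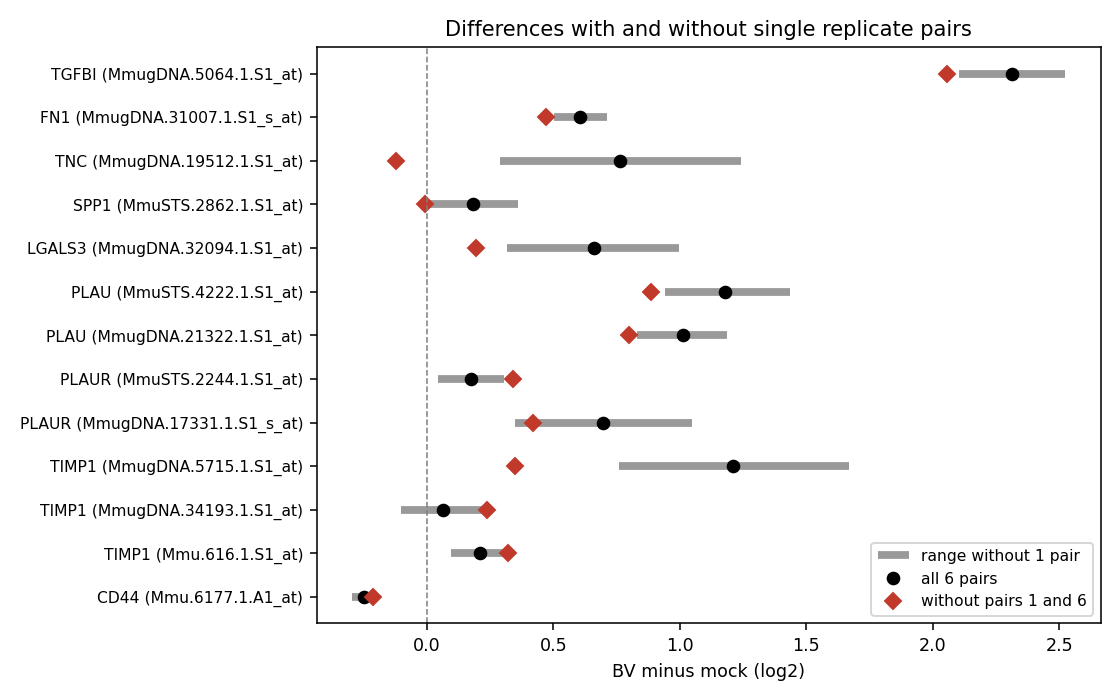
Difference of each tested probe set, BV minus mock on the log2 scale, as black points with all 6 replicate pairs, grey bars for the range when 1 pair is left out and red diamonds without pairs 1 and 6. TGFBI is at 2.06 without them, while TIMP1 and LGALS3 are at 0.35 and 0.19 and TNC is at -0.12.

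The arrays also differed in other properties, which did not all follow these values. Mock replicate 6 had an actin 3' to 5' signal ratio of 2.40, against 1.10 to 1.40 on the other 11 arrays, and mock replicate 1 had the highest GAPDH ratio at 1.42. The striatal markers averaged 10.31 on mock replicate 6, the highest of all arrays, and 6.78 on mock replicate 1. The thalamic markers were highest on mock replicate 1 at 9.42 and lowest on mock replicate 6 at 6.88, so these arrays lay at opposite ends of that list. Replicate pairs were not all alike in region markers. The striatal mean was 6.26 on BV replicate 2 against 9.69 on mock replicate 2, and 7.19 on BV replicate 5 against 9.68 on mock replicate 5. In the other pairs, pairs 1 and 6 among them, the striatal means of BV and mock lay closer together. All 9 tested striatal markers had a lower mean in BV tissue, with a median of -0.87, and 8 of 9 tested thalamic markers a higher one, with a median of 0.36. Summed striatal signals were 1270 to 6727 in BV and 1564 to 12451 in mock arrays, and summed thalamic signals 2665 to 11079 in BV and 2210 to 11315 in mock arrays. When the striatal mean was added as a covariate to the fit by replicate pair, the TGFBI difference was 2.13 with an adjusted p of 0.0914 in limma. The part of RNA quality and of sampled region in the other differences was not tested.

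Microglia and macrophage markers, as a list, moved with the genes. Of 19 microglia and macrophage markers tested, 16 had a higher BV mean, with a median difference of 0.52, and 6 of 6 pairs had the higher mean log2 value of the list on the BV array. Their summed signal was 9933 to 27836 in BV arrays and 6668 to 17835 in mock arrays, and the lowest means were those of mock replicates 1 and 6. The defining markers AIF1 and CD68 were measured at 7.84 to 9.57 and 7.22 to 10.62 in BV arrays and at 7.74 to 9.29 and 6.42 to 9.99 in mock arrays. CD163 was not represented under its own symbol. How far macrophage number sets the values of TGFBI, LGALS3 and TIMP1 was not tested.

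Of 6 neutrophil markers 4 had a higher BV mean, with a median of 0.42, the BV array had the higher list mean in 6 of 6 pairs, and 2 markers were higher at an unadjusted p under 0.05. The list had summed signals of 299 to 1356 in BV and 260 to 1326 in mock arrays, and S100A8 spanned 5.03 to 9.05 in BV and 5.28 to 9.24 in mock arrays. Of 8 astrocyte markers 3 had a higher BV mean, the median was -0.09, and the BV array had the higher list mean in 0 of 6 pairs. At an unadjusted p under 0.05 in limma, 0 of these 8 were higher and 3 lower. The summed signal of the astrocyte list was 11855 to 14217 in BV and 13669 to 16786 in mock arrays. GFAP was bright throughout, at 12.29 to 12.45 in BV and 12.15 to 12.51 in mock arrays. Of 8 endothelial markers 6 had a higher BV mean (median 0.17), with summed signals of 1462 to 2336 in BV and 1452 to 1968 in mock arrays and PECAM1 at 7.92 to 9.18 in BV and 7.41 to 8.50 in mock arrays. Mural and fibroblast markers were split, with 3 of 8 higher and a median of -0.05, and summed 828 to 1665 in BV and 802 to 1624 in mock arrays. COL1A1 was under the filter, and DCN was measured at 8.17 to 9.59 in BV and 7.69 to 9.73 in mock arrays. TTR likewise was not represented under its own symbol. Of 4 other choroid plexus and ependymal markers tested, 3 had a higher BV mean, with a median of 0.29. Their mean log2 value was 7.48 on BV replicate 1, which belongs to pair 1, and at most 5.96 on the other BV arrays and 5.90 on the mock arrays. Their summed signal was 212 to 1187 in BV and 208 to 268 in mock arrays. The part of these cells in the differences of pair 1 was not tested. As markers of brain tissue, GFAP and the neuron list (mean log2 value 9.95 to 10.43 in BV and 9.71 to 10.43 in mock arrays) were measured on every array, and no deposited signal was listed at 0.

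Other genes of the same processes were read from 5 lists, each gene by its brightest probe set. None of their genes passed an adjusted p of 0.05 in limma. Of 31 further matrix proteins tested, 20 had a higher BV mean and 11 a lower one, with a median of 0.10, and 2 were higher and 1 lower at an unadjusted p under 0.05. By that probe set, the largest differences were those of CCN2, a matricellular protein induced by TGF-beta, at 0.63 ± 0.23, of COL6A3, a chain of collagen VI, at 0.62 ± 0.21, and of HSPG2, the basement membrane proteoglycan perlecan, at -0.69 ± 0.22 (adjusted p = 0.564 in limma for each).

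Matrix proteases and their inhibitors had 15 of 20 genes with a higher BV mean and a median of 0.17. At an unadjusted p under 0.05, 3 were higher and 2 lower. CTSS, the cysteine protease cathepsin S of macrophages and microglia, had a difference of 1.05 ± 0.49 (adjusted p = 0.569 in limma). MMP3, the metalloprotease stromelysin-1, had 0.90 ± 0.29, and ADAMTS4, an aggrecanase that cuts proteoglycans, had -0.48 ± 0.17. Mock replicate 6 was low for CTSS and MMP3 too, at 5.70 and 2.93 against mock means of 8.17 and 4.86.

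Matrix and hyaluronan receptors were evenly split, with 9 of 17 higher and a median of 0.01. At an unadjusted p under 0.05, 1 was higher and 4 lower. ITGB1, the beta 1 integrin chain, had 0.86 ± 0.40, CD47, the thrombospondin receptor, had 0.52 ± 0.17, and DDR2, a collagen receptor kinase, had -0.67 ± 0.22.

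Genes of the TGF-beta pathway were split too, with 11 of 22 higher, 11 lower and a median of 0.01. ID1, a transcriptional regulator that BMP and TGF-beta signals control, had 0.65 ± 0.18 (adjusted p = 0.559 in limma) with the BV array higher in 6 of 6 pairs. TGIF1, a repressor of SMAD transcription, had 0.52 ± 0.30, and PMEPA1, a TGF-beta target that dampens the signal, had -0.74 ± 0.32. The ligand TGFB1, named after its value was seen, had -0.03 ± 0.38.

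The injury and scar list had 24 of 29 genes at a higher BV mean and a median of 0.39. Of these, 10 were higher and 0 lower at an unadjusted p under 0.05. CHI3L2, a chitinase-like protein, read 9.24 in BV and 7.08 in mock tissue on average, a difference of 2.16 ± 0.45 (adjusted p = 0.424 in limma), and was higher in 6 of 6 pairs. IGFBP3, a secreted binding protein of insulin-like growth factors, had 1.52 ± 0.52, and ATF3, a transcription factor of injured cells, had -0.22 ± 0.15. The mean log2 value of this list on mock replicates 1 and 6 was 7.40 on each, below its BV range of 8.40 to 9.48.

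The probe sets whose profiles over the 12 arrays lay closest to that of TGFBI were those of MARCO, a scavenger receptor of macrophages, TNFAIP8, DCP2, an mRNA decapping enzyme, CSTA, a cysteine protease inhibitor, and NCF1, a subunit of the phagocyte oxidase. Their root mean square differences from TGFBI were 0.453, 0.560, 0.577, 0.617 and 0.621 in log2 units, after each profile was centred, where the SD of TGFBI itself was 1.56. For the brightest TIMP1 probe set the closest were LOC710110, ANXA2, a membrane-binding annexin, SERPINA3, a protease inhibitor of reactive astrocytes, VIM, the intermediate filament vimentin, and IKZF1, a transcription factor of blood cells. Their root mean square differences from TIMP1 were 0.290, 0.294, 0.448, 0.449 and 0.460, where the SD of TIMP1 was 1.44. These are likenesses over the same 12 arrays and share each array's tissue and scaling. MARCO, the closest to TGFBI, had a difference of 2.02 (adjusted p = 0.317 in limma), with means of 6.15 in BV and 4.13 in mock tissue.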

How the data were processed

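Expression was measured on 12 rhesus macaque arrays hybridised with cynomolgus RNA, so binding can be weaker where the species differ. The authors deposited 1 linear intensity per probe set and array, and per the submitters' processing notes the software was GCOS 1.4.0.036. The summary algorithm is not given in the sources used here. The array number and the 3 animals limit the precision.

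Signals were quantile-normalized, 3.49 (the 10th percentile of deposited values) was added, and log2 was taken, so differences of dim probe sets are understated. Of 52766 non-control probe sets, the 31660 at or above the 40th percentile of mean log2 value (4.95) were tested. Piece values were averaged per hemisphere, and limma 3.58.1 (R 4.3.3) fitted treatment plus animal, leaving 2 residual degrees of freedom. Spreads were moderated by eBayes with a trend, and two-sided p-values were adjusted by Benjamini-Hochberg over all tested probe sets. The fit was run on simulated data in which, apart from added differences, arrays varied independently around the mean of their animal. That setting holds no error shared by the 2 pieces of a hemisphere. Symbols came from the platform annotation: 24969 probe sets had 1 symbol, 361 several and 27535 none listed. All 9 symbols occur in a cynomolgus gene table.

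Both hemispheres come from the same animal, which pairs the samples. Deviations from the group means correlated over probe sets at r = 0.622, 0.156 and 0.361 for animals 1 to 3, and at 0.623, 0.284, 0.498, 0.419, 0.360 and 0.312 for replicate pairs 1 to 6.

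The genes and the lists were chosen with earlier results of these data known. Of each pathway list, the 2 raised and 1 lowered genes of largest difference on their brightest probe set were named unless a gene passed. Other probe sets of some listed genes differed more. For TGFBI and TIMP1 the 5 closest profiles were named, and of the marker lists only summaries and defining markers. There were 38 alternatives: pseudocount, normalization, filter, variance trend, pairing, piece, and leaving out arrays, replicates or animals. Leaving out both arrays of replicates was added after seeing the data.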

Additional observations from a re-analysis of the deposited data

Results flagged for a closer look

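On the SPP1 probe set, mock replicate 6 stood apart from the other mock arrays. It read 11.01, and the nearest mock array read 12.03, a gap that is 0.833 of the whole range of the mock arrays. Of 26 groups of 6 arrays examined, this was the only one past the 5% critical value of Dixon's test, which about 1 in 20 groups pass by chance.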

How the results depend on the processing

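Over 38 alternatives, 492 differences of the tested probe sets were recomputed: 472 kept their direction and side of the threshold, 11 passed it and 9 changed sign. The median difference of the 9 genes stayed between 0.26 (without mock replicate 6) and 1.10 (without mock replicate 5). The count of called probe sets, 9 of all tested, was 1 with no normalization, 5 with no filter and 1 with no variance trend. On single arrays it was 55 with the replicate block, 21 with the replicate block and the striatal covariate, 30 with the animal block, 38 with a piece term as well and 85 with duplicateCorrelation. It was 4 with unpaired hemispheres, 16 on piece 1 arrays and 0 on piece 2 arrays (limma, 1769 at an unadjusted p under 0.05). The arrays of the pieces also differed in scale before normalization. Without animals 1, 2 and 3 the count of called probe sets was 1, 1843 and 73. Leaving out single arrays or pairs gave 0 to 42, where each 0 in limma had 1709 to 1980 at an unadjusted p under 0.05. Of the 13 probe sets of the 9 genes, 0 were called, but 1 (TGFBI) with the replicate block, 8 without animal 2, and 0 to 1 when single arrays or pairs were left out. The replicate block changed no other call among them. SPP1 was -0.0157 on piece 1 arrays, -0.0171 to 0.38 when single arrays or pairs were left out and -0.0089 without pairs 1 and 6. The brightest PLAUR probe set was -0.00994 on piece 1 arrays. The second TIMP1 probe set was -0.10 on piece 2 arrays and -0.10 to 0.23 when single arrays or pairs were left out. TNC was -0.12 without pairs 1 and 6. The causes were not tested. Both PLAU probe sets fall under a filter at the 60th percentile and have no value there.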
